A study of Homo sapiens with 14 samples.

Results

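Collagens are triple-helical proteins of the extracellular matrix, and each helix is wound from 3 chains, alike or different, with a gene of its own for each kind of chain. The collagen chain genes were taken here as every counted gene name of the form COL, a type number, A and a chain number. COL17A1, a transmembrane collagen of epithelial adhesion structures, was left out by this definition. This gave 43 chain genes among the 59471 gene names of the count files. A chain was called expressed when it reached 1 CPM, a count scaled to the size of its library, in at least 3 libraries, which held for 18 of the 43. Of these, 14 stood at 1 CPM or more in every one of the 14 libraries.

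RNA-seq was performed on SCC23, an established human head and neck squamous cell carcinoma (HNSCC) line grown in high-glucose medium. Control cells (KMT2D-WT) had received a Cas9-GFP plasmid with a guide RNA to bacterial LacZ, and KMT2D-KO cells the same plasmid with a guide to KMT2D, a histone H3 lysine methyltransferase gene. KO1 and KO2 are 2 such knockout lines, and whether either came from a single cell is not stated in the sources used here. Cells were kept in high glucose (+Glc) or deprived of glucose for 6 h (-Glc), in experiments 1 and 2. Under +Glc there were 3 KMT2D-WT libraries (1 in experiment 1 and 2 in experiment 2) and 4 KMT2D-KO libraries (KO1 and KO2 in each experiment), and the -Glc libraries had the same make-up. The labels mark experiments 1 and 2 within each group. They do not say whether libraries of the same genotype and experiment came from separate cultures. The p-values thus measure the spread between these libraries, which may be partly technical. All values are from bulk RNA, in which fewer cells with a transcript and less transcript per cell cannot be told apart.

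In epithelia, type IV chains form the sheet of the basement membrane, type VII forms the fibrils that anchor it, and type XVIII is a proteoglycan of the same layer. Fibrillar chains such as those of types I, III and V make the fibrils of connective tissue and are mostly products of fibroblasts, and fibril-associated chains such as those of types IX, XII and XVI attach to fibril surfaces. Chains are hydroxylated, glycosylated and folded in the endoplasmic reticulum with their own set of enzymes and chaperones, and are trimmed and cross-linked after secretion. Carcinoma cells both lay down and degrade basement membrane collagen.

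The libraries held 15669154 to 31074996 assigned counts in 10 cases. The other 4, all of experiment 2 with glucose, held 55962793 to 62968057 counts and include both mates of each pair. Even numbers made up 67.4% to 70.6% of their small counts (1 to 10), and 37.4% to 42.7% of those of the 10 single-read libraries. A count of 3 corresponded to 0.0965 to 0.191 CPM in the 10 libraries and to 0.0476 to 0.0536 CPM in the 4, where 1 molecule can give 2 counts. Squamous markers fitted the stated cell type, with 8 to 10 of 10 at 1 CPM or more and a summed level of 1056 to 3164 CPM, while 5 endothelial and 5 leukocyte markers summed to at most 4.26 and 1.21 CPM. KMT2D itself stood at 265 to 279 CPM in KMT2D-WT with glucose, at 182 and 184 CPM in KO1 and at 322 and 373 CPM in KO2. Without glucose it was 230 to 239 CPM in KMT2D-WT, 19.9 (KO1) and 190 CPM (KO2) in experiment 1, and 152 and 145 CPM in the libraries labelled KO1 and KO2 in experiment 2. Gene-level counts do not show an edit. The 2 KMT2D-KO libraries of experiment 2 without glucose both resembled KO2 over 17 genes that separated the lines with glucose (mean distance 0.44 and 0.48 on the log2 scale to KO2, 4.08 and 4.05 to KO1). Their line labels are therefore in doubt, and lines were compared only with glucose. The mix of lines in KMT2D-KO may thus differ between the glucose conditions, a limit on every comparison of the KMT2D-KO effect between them. These 2 libraries also lay close to each other (chi-square per gene 1.78), as did the 2 KMT2D-WT libraries of the same set (1.71), against 25.9 to 83.0 for other pairs.

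Promoter sequences are shown for COL18A1 and COL27A1, which among the expressed chains had the largest fall and the largest rise in KMT2D-KO cells, and for the 2 head-to-head pairs of type IV genes with the higher levels. They are RefSeq sequences of GRCh38.p14, read 5′ to 3′ on the plus strand. COL4A1 and COL4A2 lie head to head on chromosome 13, and the 126 bases between their RefSeq starts (chr13:110307158-110307283) hold 1 CCAAT box, in capitals:
COL4A1/COL4A2: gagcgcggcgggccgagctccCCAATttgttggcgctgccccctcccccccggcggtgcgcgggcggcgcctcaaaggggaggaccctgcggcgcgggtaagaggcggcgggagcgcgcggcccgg
COL4A6 and COL4A5 lie head to head on the X chromosome with 340 bases between them in the annotation. The 250 bases before the COL4A5 start (chrX:108439588-108439837) are shown with the 121 bases that also lie within 250 bases of the COL4A6 start in capitals:
COL4A5: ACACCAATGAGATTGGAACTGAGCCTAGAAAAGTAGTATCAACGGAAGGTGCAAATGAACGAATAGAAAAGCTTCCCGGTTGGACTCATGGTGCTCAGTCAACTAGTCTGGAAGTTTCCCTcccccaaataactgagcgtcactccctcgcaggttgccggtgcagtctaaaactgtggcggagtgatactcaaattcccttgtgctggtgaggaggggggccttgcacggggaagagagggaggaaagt
COL18A1 has 2 RefSeq starts, 50357 bases apart on chromosome 21. The 250 bases before the first (chr21:45404915-45405164) and before the second (chr21:45455272-45455521) carry GC boxes (GGGCGG or CCGCCC) and a TATA motif (TATAAA or TTTATA) in capitals:
COL18A1 first start: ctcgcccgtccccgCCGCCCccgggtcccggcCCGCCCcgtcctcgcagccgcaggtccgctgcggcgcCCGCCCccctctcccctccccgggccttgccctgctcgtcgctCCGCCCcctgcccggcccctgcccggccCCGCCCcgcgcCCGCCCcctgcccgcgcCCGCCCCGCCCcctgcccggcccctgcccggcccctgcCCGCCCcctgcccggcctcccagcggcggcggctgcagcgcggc
COL18A1 second start: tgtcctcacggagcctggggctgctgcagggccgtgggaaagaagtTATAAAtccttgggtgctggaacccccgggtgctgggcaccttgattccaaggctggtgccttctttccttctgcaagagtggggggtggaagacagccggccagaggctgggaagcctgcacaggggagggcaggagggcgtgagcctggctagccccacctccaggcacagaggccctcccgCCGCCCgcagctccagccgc
The 250 bases before the COL27A1 start on chromosome 9 (chr9:114155287-114155536) are marked in the same way:
COL27A1: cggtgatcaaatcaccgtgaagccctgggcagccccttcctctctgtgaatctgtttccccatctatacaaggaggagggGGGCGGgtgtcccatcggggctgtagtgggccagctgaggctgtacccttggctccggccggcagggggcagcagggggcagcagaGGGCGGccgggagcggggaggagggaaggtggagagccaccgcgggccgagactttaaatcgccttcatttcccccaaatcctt

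The first COL18A1 window was 88.4% G or C and held 9 GC boxes on either strand, overlapping ones included, while the second was 66.4% G or C with 1 GC box and the only TATAAA of the 5 windows. The COL27A1 window held 2 GC boxes and the shared COL4A5 window none. Entries were found for 31 of the 43 chains, giving 43 start windows of 250 bases. On either strand, GGGCGG occurred in 24 of these windows (55.8%) and in 42.5% of the 34943 windows of all genes, CCAAT in 11 (25.6%) and in 32.0%, and TATAAA in 7 (16.3%) and in 10.8%. These matches describe the letters of the windows and are not evidence of binding.

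Levels were compared between chains as RPKM (CPM per kilobase of exon), since the chains differ in length. COL12A1, a fibril-associated chain, was highest with a mean of 12.5 RPKM over the 14 libraries. It was the highest chain in every KMT2D-WT library, whereas in all 4 KMT2D-KO libraries with glucose COL4A5 (10.8 to 16.6 RPKM) and COL4A6 (9.80 to 14.9 RPKM) stood above COL12A1 (7.93 to 12.4 RPKM). By the mean over all libraries, the basement membrane chains COL4A5 (10.3 RPKM), COL4A6 (9.54) and COL4A2 (8.43) followed, then COL27A1, a fibrillar chain known from cartilage, at 5.61 and COL4A1 at 5.38 RPKM. The ranges of these 6 over the libraries overlapped throughout, from 7.06 to 20.4 RPKM for COL12A1 and from 1.91 to 8.76 RPKM for COL4A1. COL9A2, COL8A1, COL18A1 and COL1A1 stood between 3.18 and 1.00 RPKM on average. The other 8 expressed chains, from COL7A1 (0.770 RPKM) to COL4A3 (0.0982 RPKM), were low. All 6 type IV chains were expressed, with 4 of 11 fibrillar, 4 of 10 fibril-associated, 2 of 3 short-network chains, 1 of 2 multiplexins, the single anchoring fibril chain COL7A1, and 0 of 5 type VI chains.

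**Figure D1:**
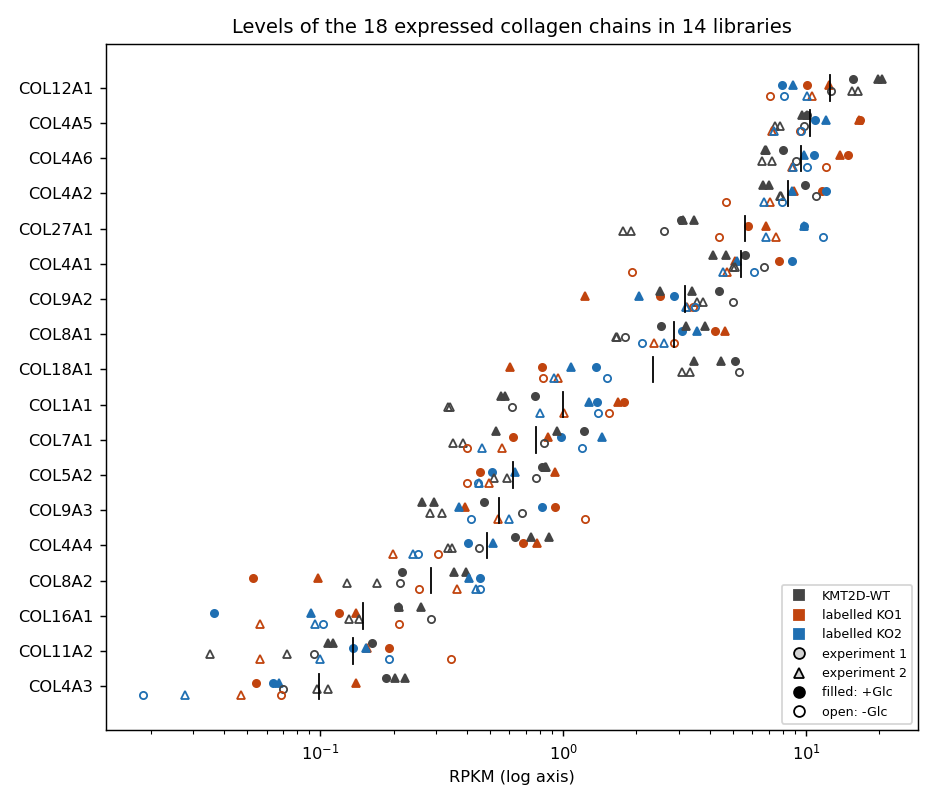
RPKM on a log axis of each of the 18 expressed collagen chains (rows, ordered by mean level) in the 14 libraries; each point is a library, coloured by genotype and line, shaped by experiment and filled for +Glc, and the vertical bar is the mean. The 6 highest rows are COL12A1, 4 type IV chains and COL27A1, and the mean falls from 12.5 RPKM for COL12A1 to 0.0982 RPKM for COL4A3.

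Summed over all chains, the collagen message was 64.4 to 69.0 RPKM in KMT2D-WT and 67.4 to 79.3 RPKM in KMT2D-KO with glucose, and 55.4 to 68.1 and 51.5 to 65.3 RPKM without it. These 4 ranges overlapped, except for those of KMT2D-KO with and without glucose. Type IV chains made up 43.5% to 49.8% of the sum in KMT2D-WT and 54.0% to 65.1% in KMT2D-KO with glucose, where the groups did not overlap, and 49.6% to 54.5% and 50.2% to 55.2% without glucose. The 6 highest chains together made up 75.6% to 84.2% of it in every library.

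KMT2D-KO cells were first compared with KMT2D-WT cells in glucose, with the experiment as a covariate. In this comparison 29 chains had enough counts to be tested, and 16 of them changed at an adjusted p under 0.05 by edgeR's quasi-likelihood test, 10 upward and 6 downward. Over all 21850 genes tested, 23.0% were called, 12.0% upward and 11.0% downward. Of the 18 expressed chains, 11 were called, 6 higher and 5 lower in KMT2D-KO. COL18A1, COL12A1, COL9A2, COL16A1 and COL4A3 fell, and COL27A1, COL1A1, COL4A6, COL4A5, COL4A1 and COL4A2 rose. The median log2 fold change of the 29 chains was 0.34, beside 0.02 for all genes. The 10 higher chains and this median include COL1A2, COL3A1, COL6A1 and COL6A2, which were tested only because a few libraries held them. The 6 lower chains include COL24A1, which was not expressed and was tested mainly through KMT2D-WT libraries. Without the experiment in the model 4 chains were called, and without the KMT2D-WT library of experiment 1 there were 7. Groups without overlap are described below from the libraries that gave the calls. The share of all genes without overlap was not counted, so such separation adds no support to a call.

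COL18A1, whose C-terminal fragment is endostatin, fell most among the expressed chains. Its level with glucose was 43.2, 37.9 and 29.2 CPM in KMT2D-WT, 6.94 and 5.09 CPM in KO1 and 11.6 and 9.07 CPM in KO2. The groups did not overlap, and KMT2D-WT was 4.67 times as high as KMT2D-KO in experiment 1 and 4.74 times in experiment 2. The log2 fold change was -2.23 ± 0.23 (SE, 3 KMT2D-WT and 4 KMT2D-KO libraries, edgeR adjusted p = 0.000271). COL18A1 spans chr21:45405165-45513720 on the plus strand, and 18.5% of its exonic bases are shared, in antisense, with SLC19A1, a folate transporter gene. Counting ignored strand, so reads from the shared bases cannot be told apart. SLC19A1 moved in the other direction, from 23.6 ± 2.7 CPM in KMT2D-WT to 53.8 ± 7.3 CPM in KMT2D-KO (SD, n = 3 and 4).

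COL12A1, the chain with the highest level in KMT2D-WT, also fell. It stood at 194, 255 and 245 CPM in KMT2D-WT, at 126 and 155 CPM in KO1 and at 99.0 and 110.1 CPM in KO2 with glucose. Every KMT2D-KO library was below every KMT2D-WT library, with a log2 fold change of -0.86 ± 0.13 (edgeR adjusted p = 0.00171). The gene lies at chr6:75084326-75206053 on the minus strand.

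COL27A1 (chr9:114155537-114312511, plus strand) rose, and the lines stood apart. It measured 42.9, 48.4 and 43.4 CPM in KMT2D-WT, 81.1 and 95.4 CPM in KO1, and 137 CPM in both KO2 libraries. The log2 fold change was 1.35 ± 0.20 (edgeR adjusted p = 0.00145), and KMT2D-KO was 2.54 and 2.53 times as high in experiments 1 and 2. COL1A1 (chr17:50184101-50201632, minus strand), which encodes the main chain of type I collagen, rose from a lower level. It stood at 6.91, 5.17 and 4.99 CPM in KMT2D-WT, 16.0 and 15.1 CPM in KO1 and 12.4 and 11.5 CPM in KO2, a log2 fold change of 1.25 ± 0.17 (edgeR adjusted p = 0.000913) without overlap.

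**Figure D2:**
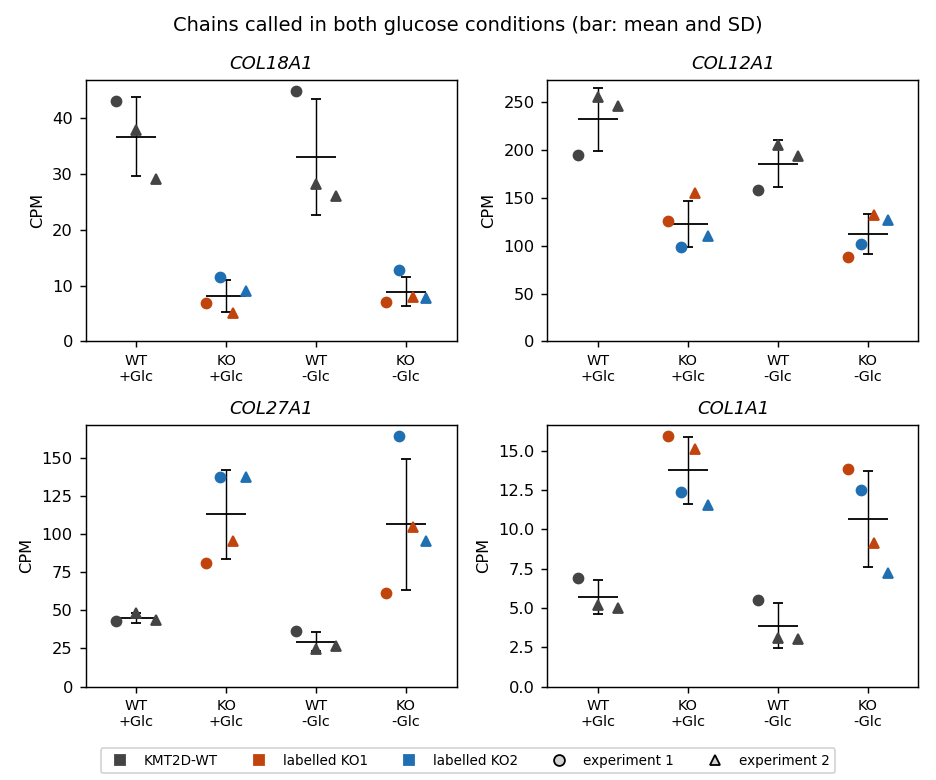
CPM (from 0) of COL18A1, COL12A1, COL27A1 and COL1A1 in each library, in 4 groups by genotype and glucose, coloured by genotype and line and shaped by experiment, with a line and bars for the mean and SD of each group. COL18A1 and COL12A1 are lower, and COL27A1 and COL1A1 higher, in every KMT2D-KO library than in every KMT2D-WT library of the same glucose condition.

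Of 5 fibril-associated chains tested with glucose, 3 were called lower (COL12A1, COL9A2 and COL16A1), beside 11.0% of all genes. COL9A2, a chain of the type IX collagen of cartilage fibrils, stood at 18.5, 10.5 and 14.3 CPM in KMT2D-WT, 10.5 and 5.16 CPM in KO1 and 12.1 and 8.63 CPM in KO2 with glucose. These groups overlapped, and the call (log2 fold change -0.79 ± 0.20, edgeR adjusted p = 0.0201) rests on the differences within each experiment. COL16A1 measured 1.94, 2.39 and 1.96 CPM in KMT2D-WT, 1.10 and 1.29 CPM in KO1 and 0.339 and 0.849 CPM in KO2 (log2 fold change -1.17 ± 0.35, edgeR adjusted p = 0.0412). COL24A1, a fibrillar chain that was not expressed by the limit used, averaged 0.844 CPM in KMT2D-WT and 0.190 CPM in KMT2D-KO (log2 fold change -1.97 ± 0.55, edgeR adjusted p = 0.0298). It had 17 to 60 counts in KMT2D-WT and 2 to 30 in KMT2D-KO. It was thus tested mainly through KMT2D-WT libraries, where it was higher, so this call is no test.

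Type IV collagen is assembled from fixed sets of chains, COL4A1 with COL4A2, COL4A3 with COL4A4 and COL4A5, and COL4A5 with COL4A6, and each pair of neighbouring genes shares a promoter region. With glucose 4 of the 6 chains were called higher (12.0% of all genes were), 1 lower (11.0% of all genes), and COL4A4 was not called. COL4A6 (chrX:108155607-108439497, minus strand) stood at 74.8, 62.6 and 63.7 CPM in KMT2D-WT, 139 and 128 CPM in KO1 and 100.005 and 90.9 CPM in KO2. Its partner COL4A5 (chrX:108439838-108697545, plus strand) stood at 119.6, 119.9 and 115 CPM, 197 and 196 CPM, and 129 and 143 CPM in the same order. Neither gene's groups overlapped. The log2 fold change was 0.75 ± 0.14 for COL4A6 (edgeR adjusted p = 0.00591) and 0.50 ± 0.15 for COL4A5 (edgeR adjusted p = 0.0448).

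The other pair changed less. COL4A1 (chr13:110148963-110307157, minus strand) measured 81.8, 68.7 and 60.9 CPM in KMT2D-WT, 114 and 74.7 CPM in KO1 and 128 and 76.3 CPM in KO2 with glucose. COL4A2 (chr13:110305812-110513209, plus strand) measured 190.0, 136 and 128 CPM, 224 and 171 CPM, and 232 and 169 CPM. Groups overlapped for both chains across experiments, and within each experiment every KMT2D-KO library was above every KMT2D-WT library. The log2 fold changes were 0.36 ± 0.11 (COL4A1, edgeR adjusted p = 0.0387) and 0.33 ± 0.07 (COL4A2, edgeR adjusted p = 0.0127). COL4A3, a chain best known from kidney and lung, fell from 1.69, 1.83 and 2.02 CPM in KMT2D-WT to 0.491 and 1.28 CPM in KO1 and 0.580 and 0.611 CPM in KO2 (log2 fold change -1.23 ± 0.32, edgeR adjusted p = 0.0235). For COL4A3, 9.24% of exonic bases overlap the antisense gene MFF-DT.

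**Figure D3:**
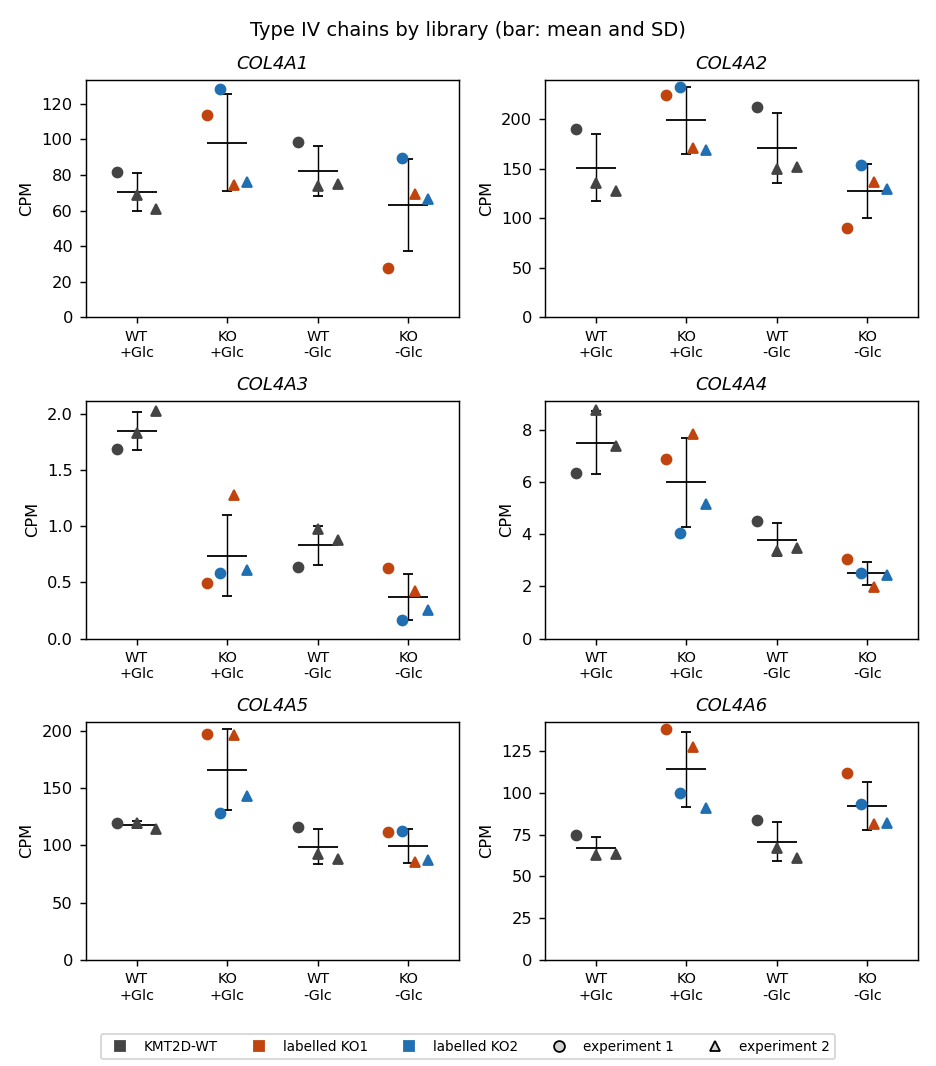
CPM (from 0) of the 6 type IV chains in each library, 1 panel a chain, in 4 groups by genotype and glucose with a line and bars for the mean and SD of each group, coloured by genotype and line and shaped by experiment. With glucose COL4A5 and COL4A6 are higher in every KMT2D-KO library than in every KMT2D-WT library, and without glucose the KO1 library of experiment 1 is the lowest for COL4A1 (28.0 CPM) and COL4A2 (90.1 CPM).

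Ratios of RPKM describe how the partners kept pace. COL4A2 was 1.30 to 2.45 times COL4A1 over the 14 libraries (median 1.55). COL4A6 was 0.667 to 0.801 of COL4A5 in KMT2D-WT and 0.811 to 0.994 in KMT2D-KO with glucose, and 0.884 to 0.931 and 1.05 to 1.28 without it, so that the ratio was higher in KMT2D-KO in both conditions. COL4A4 was 3.29 to 4.32 times COL4A3 in KMT2D-WT and 5.56 to 12.6 times in KMT2D-KO with glucose, and 3.12 to 6.45 and 4.21 to 13.5 times without it, where the ranges overlapped.

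The remaining 7 expressed chains were not called with glucose. COL9A3 had a log2 fold change of 0.63 (edgeR adjusted p = 0.0631), COL8A1, a short-network chain, of 0.34 (0.149), COL5A2, which joins type V fibrils, of -0.35 (0.267) and COL4A4 of -0.28 (0.422). COL7A1, the anchoring fibril chain, measured 9.93 ± 3.9 CPM in KMT2D-WT and 10.8 ± 3.8 CPM in KMT2D-KO (SD, n = 3 and 4), with a log2 fold change of 0.15 (edgeR adjusted p = 0.789). COL8A2 (-0.28) and COL11A2 (0.32) had adjusted p-values of 0.80 and 0.47.

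**Figure D4:**
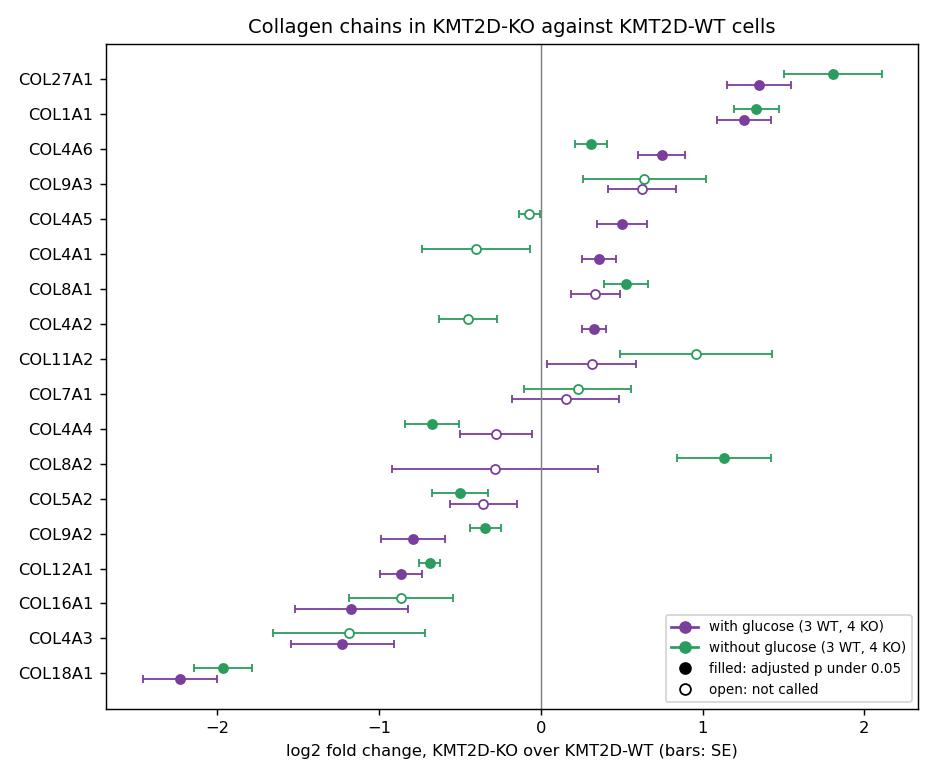
Log2 fold change of KMT2D-KO over KMT2D-WT for the 18 expressed chains with glucose (purple) and without glucose (green), each from 3 KMT2D-WT and 4 KMT2D-KO libraries; bars are SE and filled points have an edgeR adjusted p under 0.05. COL27A1 and COL1A1 lie to the right and COL18A1 and COL12A1 to the left in both conditions, while COL4A1, COL4A2, COL4A5 and COL8A2 lie on opposite sides of 0 in the 2 conditions. Of these, only COL4A2 was called for the interaction. COL8A2 and COL4A5 differed between KO1 and KO2 with glucose. The mix of lines may differ without glucose, so line and glucose cannot be told apart.

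Without glucose, 11 of the 19 chains tested were called, 5 upward and 6 downward, beside 49.7% of the 17679 genes tested (25.3% upward and 24.4% downward). Of the 18 expressed chains, 10 were called. COL27A1, COL1A1, COL8A2, COL8A1 and COL4A6 rose, and COL24A1, COL18A1, COL12A1, COL4A4, COL5A2 and COL9A2 fell. Of these, COL24A1 was not expressed and was tested through KMT2D-WT libraries only, so its call is no test. The median log2 fold change of the chains was -0.34, beside 0.00 for all genes. With each close pair of libraries of experiment 2 summed, 3 chains were still called (COL12A1, COL18A1 and COL1A1), and without any one of the KMT2D-WT libraries there were 5.

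Without glucose COL18A1 stood at 44.9, 28.2 and 26.1 CPM in KMT2D-WT and at 7.01, 12.8, 8.06 and 7.74 CPM in KMT2D-KO (log2 fold change -1.96 ± 0.18, edgeR adjusted p = 0.000228). COL12A1 was at 158, 204 and 194 CPM against 88.2, 102, 132 and 126 CPM (-0.69 ± 0.07, edgeR adjusted p = 0.000264). Both chains were again lower in every KMT2D-KO library. COL27A1 measured 36.5, 24.7 and 26.7 CPM in KMT2D-WT and 61.2, 164, 105 and 95.4 CPM in KMT2D-KO, a log2 fold change of 1.80 ± 0.30 (edgeR adjusted p = 0.00266). COL1A1 measured 5.53, 3.08 and 3.03 CPM against 13.8, 12.5, 9.10 and 7.19 CPM (1.33 ± 0.14, edgeR adjusted p = 0.000391). These 4 chains kept their direction within experiments 1 and 2 in both glucose conditions, with KMT2D-WT over KMT2D-KO ratios of 3.44 to 4.74 for COL18A1 and 1.54 to 1.89 for COL12A1, and KMT2D-KO over KMT2D-WT ratios of 2.53 to 3.89 for COL27A1 and 2.05 to 2.67 for COL1A1.

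COL8A1 and COL8A2, the chains of type VIII collagen beneath endothelium and cornea, rose without glucose, while COL10A1, the third short-network chain, had too few counts to be tested. COL8A1 stood at 16.8, 15.6 and 15.6 CPM in KMT2D-WT and at 26.8, 19.8, 22.3 and 24.5 CPM in KMT2D-KO (0.53 ± 0.13, edgeR adjusted p = 0.0158). COL8A2 stood at 0.997, 0.799 and 0.599 CPM against 1.19, 2.13, 1.71 and 2.05 CPM (1.13 ± 0.29, edgeR adjusted p = 0.0158). Neither COL8A1 nor COL8A2 overlapped between groups, and the share of all genes without overlap was not counted. With glucose COL8A2 was lower in KO1 (0.246 and 0.455 CPM) than in KO2 (2.13 and 1.92 CPM). The mix of lines may differ without glucose, so its values in the 2 conditions cannot be compared for glucose alone. COL4A6 was at 84.0, 67.3 and 61.2 CPM against 112, 93.1, 81.5 and 82.2 CPM, with overlap (0.31 ± 0.10, edgeR adjusted p = 0.0347). With library size in place of TMM scaling, which lowered the median of all genes by 0.26 on the log2 scale here, COL8A1 and COL4A6 were not called, and of 13 chains then called 3 were higher and 10 lower.

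Among chains that fell without glucose, COL4A4 stood at 4.53, 3.37 and 3.49 CPM in KMT2D-WT and at 3.07, 2.52, 1.99 and 2.43 CPM in KMT2D-KO (-0.67 ± 0.17, edgeR adjusted p = 0.0145). COL5A2 stood at 5.66, 3.79 and 4.30 CPM against 2.94, 3.25, 3.60 and 3.30 CPM (-0.50 ± 0.17, edgeR adjusted p = 0.0464). COL9A2 stood at 21.1, 14.98 and 15.8 CPM against 14.4, 14.7, 13.6 and 13.5 CPM (-0.34 ± 0.10, edgeR adjusted p = 0.0224). All 3 were lower in every KMT2D-KO library, by small margins. The same libraries gave the calls, and the share of all genes without overlap was not counted, so this adds no support. COL24A1, which was not expressed, averaged 0.551 against 0.108 CPM (-2.55, edgeR adjusted p = 0.0103). It had 10 to 21 counts in KMT2D-WT and 1 to 5 in KMT2D-KO. It was thus tested through KMT2D-WT libraries only, where it was higher, so this call is no test.

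The type IV chains other than COL4A4 and COL4A6 were not called without glucose. COL4A1 measured 98.5, 73.6 and 74.7 CPM in KMT2D-WT and 28.0, 89.7, 69.5 and 66.3 CPM in KMT2D-KO (-0.40 ± 0.33, edgeR adjusted p = 0.352). COL4A2 measured 212, 149.7 and 152 CPM against 90.1, 154, 137 and 129 CPM (-0.45 ± 0.18, edgeR adjusted p = 0.0758). COL4A5 measured 116, 92.4 and 88.5 CPM against 112, 113, 85.9 and 87.7 CPM (-0.07 ± 0.06, edgeR adjusted p = 0.389). The KO1 library of experiment 1, the lowest for COL4A1 and COL4A2, is also the one with the lowest KMT2D level. COL4A3 had a log2 fold change of -1.19 (edgeR adjusted p = 0.0727), COL16A1 of -0.87 (0.0599), COL9A3 of 0.64 (0.201), COL7A1 of 0.23 (0.592) and COL11A2 of 0.96 (0.131).

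Both comparisons called 7 chains (7 of 16 with and 7 of 11 without glucose), COL12A1, COL18A1, COL1A1, COL24A1, COL27A1, COL4A6 and COL9A2. A further 9 were called with glucose alone and 4 without glucose alone. Over all genes 23.0% were called with and 49.7% without glucose. The share of all genes called in both was not counted, so this overlap is only a list. COL24A1 was not expressed, and it was tested mainly through KMT2D-WT libraries with glucose and through them only without glucose. Whether the KMT2D-KO effect differed between glucose conditions was tested as an interaction over all 14 libraries. Both KMT2D-KO libraries of experiment 2 without glucose resembled KO2, so the mix of lines may differ between conditions. The interaction cannot tell a difference of glucose from a difference of lines. The interaction was called for 1 of 23 chains tested, beside 10.5% of the 19473 genes tested. This chain was COL4A2, whose KMT2D-KO effect was lower without glucose by a log2 value of -0.76 ± 0.22 (edgeR adjusted p = 0.0499). The call is marginal, since it held in 2 of 14 fits that each left out 1 library and was lost without the experiment in the model. The other type IV chains had interaction values of -0.73 (COL4A1, edgeR adjusted p = 0.256), -0.55 (COL4A5, 0.0808), -0.42 (COL4A6, 0.172), -0.38 (COL4A4, 0.454) and 0.06 (COL4A3, 0.971). For the chains called in a single condition other than COL4A2, a difference between conditions was thus not shown.

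Removal of glucose was examined within experiment 1, with the line as a covariate, because +Glc and -Glc libraries of experiment 2 were counted differently. No chain was called among 19 tested by edgeR (4 had an unadjusted p under 0.05, and DESeq2 called 0), beside 1.51% of the 17071 genes tested. The median log2 fold change of the chains was -0.17, beside -0.02 for all genes. Fitted over KMT2D-WT, KO1 and KO2 together, the 6 type IV chains had log2 fold changes of -0.94 (COL4A3, edgeR adjusted p = 0.454), -0.79 (COL4A4, 0.19), -0.75 (COL4A1, 0.237), -0.60 (COL4A2, 0.203), -0.37 (COL4A5, 0.293) and -0.10 (COL4A6, 0.771). COL8A1 had -0.56 (edgeR adjusted p = 0.129). The single KMT2D-WT pair did not move this way for every chain: COL4A1 went from 81.8 to 98.5 CPM, COL4A2 from 190.0 to 212 CPM and COL4A6 from 74.8 to 84.0 CPM without glucose. COL4A1 was lower without glucose in KO1 (114 to 28.0 CPM) and KO2 (128 to 89.7 CPM), as was COL4A2 (224 to 90.1 and 232 to 154 CPM). COL4A1 and COL4A2 were called when no filter on low counts was applied, 2 chains were called without either KMT2D-WT library, and a fit over all 14 libraries called 8 chains, 7 of them lower.

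The lines were each set against KMT2D-WT with glucose, using the same 3 control libraries. KO1 had 19 of 29 chains called (14 higher and 5 lower), beside 32.0% of all genes, and KO2 had 18 (11 higher and 7 lower), beside 34.6%. Among the 18 expressed chains, 13 were called for KO1 (8 higher and 5 lower) and 12 for KO2 (6 higher and 6 lower). The higher calls also include COL1A2, COL3A1, COL6A1 and COL6A2 for each line, COL11A1 and COL19A1 for KO1, and COL5A1 for KO2. The lower calls for KO2 also include COL24A1. These unexpressed chains were tested mainly through the libraries in which they were high, so their calls are no test. Without the experiment in the model the calls of all chains became 5 for KO1 and 3 for KO2. Without the line's own library of experiment 2 they became 10 and 9. Since the controls are shared, agreement between the lines is not counted, and values are given side by side, the first for KO1. Log2 fold changes were -2.69 and -1.89 for COL18A1 (edgeR adjusted p = 2.23e-10 and 5.85e-09), -0.68 and -1.08 for COL12A1, 0.99 and 1.64 for COL27A1, 1.44 and 1.07 for COL1A1, 0.96 and 0.49 for COL4A6, and 0.74 and 0.22 for COL4A5. All 6 chains were called for each line. Several chains were called for one line alone. COL8A2 fell in KO1 to 0.246 and 0.455 CPM, from 1.01, 1.85 and 1.65 CPM in KMT2D-WT, and was 2.13 and 1.92 CPM in KO2. COL16A1 (-1.66) and COL4A4 (-0.64) were called in KO2, and COL8A1 (0.52) and COL9A3 (0.67) in KO1.

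KO1 was then compared directly with KO2, and 9 of 29 chains differed (8 of the 18 expressed chains), beside 14.7% of all genes. These calls were lost without the experiment in the model, and 5 were made without KO1 or KO2 of experiment 2. COL8A2 (log2 fold change of KO1 over KO2 -2.44, edgeR adjusted p = 0.000435), COL18A1 (-0.80, 0.00117) and COL27A1 (-0.65, 0.000116) were lower in KO1. COL4A4 (0.66, 0.0198), COL4A5 (0.52, 0.000276), COL4A6 (0.47, 0.00086), COL12A1 (0.41, 0.0029) and COL8A1 (0.40, 0.0285) were higher in KO1. For these 8 chains the 2 KO1 libraries did not overlap with the 2 KO2 libraries. This adds no support to the calls, since the same libraries gave them and the share of all genes without overlap was not counted. COL5A1, the ninth, was near the detection limit, with means of 0.0455 CPM in KO1 and 0.671 CPM in KO2 (-3.71, edgeR adjusted p = 0.027). It had 62 counts in KO2 of experiment 2 and 0 to 6 in the other libraries with glucose. It was thus tested mainly through the library in which it was high, so this call is no test, and DESeq2 with the same terms did not make it.

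Of the 25 chains that were not expressed, 17 stayed under 20 counts in every library and 2, COL13A1 and COL15A1, had no count at all. COL13A1 is a transmembrane collagen and COL15A1 the relative of COL18A1. In the 10 libraries of single reads a count of 0 allows up to 0.0965 to 0.191 CPM, for counting error alone. COL24A1, a fibrillar chain, was the only one of the 25 with a count in every library, from 1 to 60. The other chains with 20 or more counts in a library were COL1A2, COL3A1, COL6A1, COL6A2, COL11A1, COL5A1 and COL10A1. The 6 chains that reached 1 CPM in some library were COL1A2, COL3A1, COL6A1, COL6A2, COL11A1 and COL5A1.

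COL1A2, COL3A1, COL6A1 and COL6A2, chains of types I, III and VI that are typical of fibroblasts, were read almost wholly in 2 libraries. COL3A1 had 346 counts in KO1 and 190 in KO2 of experiment 2 with glucose, 14 in 1 KMT2D-WT library of that set, and 0 to 2 in the other 11. COL1A2 had 351 and 191 counts in the same 2 KMT2D-KO libraries, 58 and 25 in the KMT2D-WT libraries of that set, and 2 or fewer elsewhere. COL6A1 had 124 and 52 counts and COL6A2 68 and 33 in the 2 KMT2D-KO libraries. Summed, the 4 chains gave 889 counts (13.5 CPM) in KO1, 466 (7.91 CPM) in KO2, 78 and 41 in KMT2D-WT of that set, and 8 or fewer in each of the other 10 libraries, including both KMT2D-KO libraries of experiment 1 with glucose. They passed the filter on low counts through these libraries only.

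All 4 chains are among the 10 called higher in KMT2D-KO with glucose, but a chain that passed the filter through the libraries where it was high had to differ, so these 4 calls are no test. DESeq2 with the same terms did not call COL3A1 and COL6A1. In experiment 1 COL1A2, COL3A1 and COL6A2 had 0 counts in all 3 libraries with glucose. In the same 2 libraries, 7 fibroblast markers (PDGFRA, PDGFRB, DCN, LUM, THY1, FAP and POSTN) summed to 1.37 CPM (KO1) and 1.63 CPM (KO2), against 0.0906 to 0.523 CPM in the other 12. None of the 7 reached 1 CPM in any library, and LUM was at 0 in the KO1 library. The eighth marker on the list, FBLN1, the only one at 1 CPM or more, went the other way. It stood at 14.2 to 34.2 CPM over all libraries and was lowest in these 2 (14.6 and 14.2 CPM), so that all 8 markers summed to 16.0 and 15.9 CPM there, against 28.2 and 29.0 CPM in KMT2D-WT of that set and 14.99 to 34.3 CPM over all libraries. The part of other cells in these counts was not tested. COL1A1 was called with and without glucose and in both lines, and it showed no such restriction to 2 libraries, while COL1A2, which joins it in type I collagen, was at most 0.294 of its RPKM in any library and at 0 in 9 of 14.

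**Figure D5:**
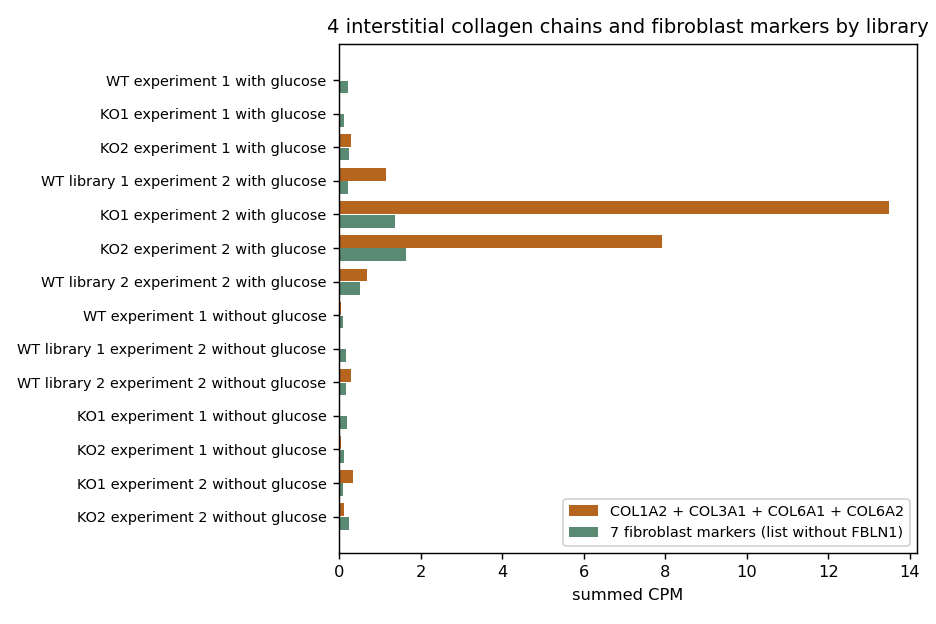
Summed CPM (linear axis from 0) of COL1A2, COL3A1, COL6A1 and COL6A2, and of 7 fibroblast markers, in each of the 14 libraries. The KO1 and KO2 libraries of experiment 2 with glucose stand at 13.5 and 7.91 CPM for the 4 chains and at 1.37 and 1.63 CPM for these 7 markers, above every other library, while FBLN1, another marker that is not plotted, is lowest in these 2 (14.6 and 14.2 CPM).

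A list of 48 genes for collagen biosynthesis, processing, degradation and reception was examined beside the chains, of which 37 were expressed. With glucose 20 of 44 tested were called, 12 higher and 8 lower in KMT2D-KO, and without glucose 24 of 39, 15 higher and 9 lower, against the backgrounds of 23.0% and 49.7% given above. Of the 37 expressed genes 18 were called with glucose, 10 higher and 8 lower. The higher calls with glucose include ADAMTS3, TLL2, MMP13 and COLGALT2, which had 0 to 10 counts in KMT2D-WT libraries. These 4 were tested mainly through KMT2D-KO libraries, where they were high, so their calls are no test. ADAMTS3 was tested in the same way without glucose. The median log2 fold change of the genes tested was -0.05 with glucose and 0.23 without. Without the experiment in the model, 7 and 11 were called.

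Chaperones of procollagen moved in both directions. FKBP10, a prolyl isomerase of the endoplasmic reticulum that acts on type I procollagen, fell from 40.3, 36.8 and 34.0 CPM in KMT2D-WT to 0.368 and 0.759 CPM in KO1 and 4.93 and 1.63 CPM in KO2 with glucose (log2 fold change -4.49, edgeR adjusted p = 0.000599), and also without glucose (-3.82, 7.58e-05). SERPINH1, the collagen chaperone HSP47, rose with glucose (207 ± 48 to 406 ± 91 CPM, SD, n = 3 and 4, log2 fold change 0.93, edgeR adjusted p = 0.00278) and without it (1.23, 4.03e-05). SPARC, a collagen-binding matrix protein, rose by 1.07 with glucose (edgeR adjusted p = 0.0018) and by 1.60 without (4.45e-05). Of the hydroxylases and their helpers, P3H4 fell in both conditions (-0.93, edgeR adjusted p = 0.000941, and -1.21, 0.000138), PPIB rose in both (0.35, 0.0331, and 0.83, 0.000218), and PLOD1, a lysyl hydroxylase, rose without glucose (0.96, 0.00158). P4HA2 (-0.44, edgeR adjusted p = 0.0464) and PLOD2 (-0.41, 0.0111) fell with glucose, as did the export gene SEC23A (-0.47, 0.00875), and COLGALT1, which adds galactose to hydroxylysine, rose (0.35, 0.0374). FKBP14, a relative of FKBP10, fell without glucose (-0.80, edgeR adjusted p = 0.0413).

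Of the 5 lysyl oxidases, which cross-link fibrils, 3 were called higher with glucose (12.0% of all genes were) and 0 lower. LOX rose from 2.57, 1.86 and 2.90 CPM in KMT2D-WT to 13.7 and 13.5 CPM in KO1 and 10.7 and 18.4 CPM in KO2 with glucose (log2 fold change 2.57, edgeR adjusted p = 0.000129). Without glucose it stood at 7.61, 9.80 and 9.86 CPM in KMT2D-WT and its change was smaller (0.60, edgeR adjusted p = 0.0415), a difference between conditions that was itself called (-1.95, 0.00267). The interaction was called for 4 of the 42 biosynthesis genes tested (9.52%), beside 10.5% of all genes. LOX was the 1 lower call, and the 3 higher calls were hydroxylases or their helpers. The share was thus near that of all genes, and the mix of lines may differ between conditions. LOXL2 rose by 1.00 with glucose (edgeR adjusted p = 0.000256) and by 0.80 without (0.000138). LOXL1 was the other lysyl oxidase called higher with glucose, at 0.464, 0.370 and 0.270 CPM in KMT2D-WT and 0.967 to 1.60 CPM in KMT2D-KO. Without glucose LOXL1 rose too (1.58, edgeR adjusted p = 0.0157), and LOXL3 fell (-0.42, 0.0113). ADAMTS3, a procollagen N-proteinase, averaged 0.0816 CPM in KMT2D-WT and 2.59 CPM in KMT2D-KO with glucose (edgeR adjusted p = 0.000921). It had 0 to 8 counts in the KMT2D-WT libraries and 21 to 259 counts (1.29 CPM or more) in each KMT2D-KO library. It was thus tested through the KMT2D-KO libraries, where it was high, so this call is no test. PCOLCE2, an enhancer of procollagen cleavage, rose by 0.41 with glucose (edgeR adjusted p = 0.0408).

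Of the 7 receptor genes, 2 of 7 tested were called with glucose (23.0% of all genes), both lower, and 5 of 5 tested without it (49.7% of all genes), 3 lower and 2 higher, DDR1 (0.29, edgeR adjusted p = 0.0134) and ITGB1 (0.26, 0.0373). ITGA2, the alpha chain of the main epithelial collagen receptor, averaged 357 CPM in KMT2D-WT and 125 CPM in KMT2D-KO with glucose (log2 fold change -1.37, edgeR adjusted p = 0.013) and fell by 1.65 on the log2 scale without glucose (0.00012). ITGA1 fell in both conditions (-0.91, edgeR adjusted p = 0.00291, and -0.87, 0.00169), and DDR2, a collagen-activated kinase, without glucose (-1.35, 0.0198). MMP14, a membrane-bound collagenase, stood at 114, 109 and 102 CPM in KMT2D-WT, 0.737 and 1.91 CPM in KO1 and 25.2 and 23.7 CPM in KO2 with glucose (-3.06, edgeR adjusted p = 0.0331). MMP1, a secreted collagenase, was not called (0.59, edgeR adjusted p = 0.689), with the lines on opposite sides of KMT2D-WT. It stood at 112, 227 and 108 CPM in KMT2D-WT, 399 and 395 CPM in KO1 and 46.8 and 26.8 CPM in KO2 with glucose.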

How the data were processed

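RNA-seq was measured in 14 libraries of SCC23 cells, grouped by genotype, line, glucose and experiment from their labels. The deposited values are raw read counts per gene name: the authors aligned the reads with HISAT2 to GRCh38 and counted them with featureCounts 2.0.3 on the Ensembl 102 annotation, on primary alignments and without strand. The 4 libraries of experiment 2 with glucose count both mates of a pair, which doubles their counts without adding molecules. Depth per library is given with the results, and floors of 3 counts cover counting error only. The chains and gene lists were chosen with earlier results of these data known.

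Counts were tested with the quasi-likelihood test of edgeR 4.0.16 (limma 3.58.1, R 4.3.3) after filterByExpr (minimum count 10) and TMM scaling over all genes, with Benjamini-Hochberg adjustment over every gene tested. A feature was called at an adjusted p under 0.05. SE is the absolute log2 fold change over the root of F. CPM used TMM-scaled library sizes, and RPKM the exonic length in the count files. Experiment was a covariate in the KMT2D-KO, line and interaction fits, and line in the glucose fit. The experiment numbers were taken from the labels. Differences between experiments correlated between KMT2D-WT and KMT2D-KO across genes (r = 0.94 with and 0.88 without glucose). With glucose the experiments also differ in the counting of single reads or both mates. The correlation therefore cannot show that KMT2D-WT and KMT2D-KO libraries were made in pairs. Named with values in every library were the 6 chains of highest mean RPKM and the called chains with a mean of at least 1 CPM, up to 6 in each direction per comparison. Of the 48 biosynthesis genes, called ones with a mean of at least 1 CPM were named, up to 8 in each direction per comparison, and MMP1, DDR1 and ITGB1 were added after their values were seen. Alternatives were DESeq2 1.42.0, other scalings, filters and limits, no experiment term, halved counts, summed close pairs and each library left out in turn. Fits on experiment 1 alone were chosen after seeing the data. Scripts were tested on simulated data.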

Additional observations from a re-analysis of the deposited data

Results flagged for a closer look

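In the group of 4 KMT2D-KO libraries without glucose, COL3A1 stood at 0.0474 CPM in the library labelled KO1 of experiment 2, far from the others, which were all at 0, and this value is 1 count. In the 4 KMT2D-KO libraries with glucose, COL4A3 stood at 1.28 CPM in KO1 of experiment 2, far above the other 3 (0.491 to 0.611 CPM). A far sample was sought in 34 groups of 4 libraries, and chance gives about 1 such sample in 20 groups, so 2 of 34 are near that number. The KMT2D-KO effect on COL4A2 differed between glucose conditions by the interaction test of edgeR (log2 difference -0.76, adjusted p = 0.0499), with KMT2D-KO above KMT2D-WT with glucose (0.33) and a value of -0.45 that was not called without it. The mix of KMT2D-KO lines may also differ between the conditions, and the 2 cannot be told apart.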

How the results depend on the processing

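No result reversed its direction under any alternative, and the number of expressed chains stayed at 18 with each library left out. The called chains depended mainly on the experiment term, which acts as the replicate block. With no replicate block the calls with glucose went from 16 to 4 (6 with DESeq2), without glucose from 11 to 5 (6 with DESeq2), for the interaction from 1 to 0 (0 with DESeq2), for KO1 from 19 to 5, for KO2 from 18 to 3, for KO1 against KO2 from 9 to 0, and in the biosynthesis list from 20 to 7 and from 24 to 11. At an adjusted p under 0.01, 7, 4 and 0 chains were called with glucose, without glucose and for the interaction. Experiment 2 alone gave 8 and 17 chains with and without glucose, and experiment 1 alone, chosen after seeing the data, gave 1 (COL18A1) and 0. Summing close pairs gave 3 without glucose and 0 for the interaction. The interaction had 2 calls with library size scaling and 4 with no filter, and the glucose comparison 2 with no filter (COL4A1 and COL4A2) and 8 over all 14 libraries with genotype and experiment as terms. Leaving out each library in turn gave 7 to 16 chains with glucose, 5 to 16 without, 0 to 2 for the interaction, 0 to 2 for glucose, 10 to 19 for KO1, 9 to 20 for KO2, 5 to 11 for KO1 against KO2, and 10 to 20 and 16 to 35 biosynthesis genes. The lowest values came without a KMT2D-WT library (7 to 10 chains with glucose, 5 without it) or without a library of the line compared. COL18A1, COL12A1 and COL1A1 were called in both glucose conditions under every alternative except experiment 1 alone, and COL27A1 lost its call also with close pairs summed. With library size scaling the share of calls higher over all genes went from 50.8% to 30.2% without glucose, from 42.1% to 9.96% for the interaction, from 51.9% to 41.6% for KO2 and from 49.7% to 65.0% for KO1 against KO2. The causes of these changes were not tested.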
